A study of Homo sapiens with 6 samples.

Results

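The mitotic spindle and cytokinesis genes are 40 protein-coding genes, chosen by symbol for their role in cell division, out of 41768 genes with a name in the deposited expression table. All 40 were found in the table under 1 entry each, and all 40 passed the filter on low values used for testing, an average of 1 FPKM or more. They were read in poly(A)-selected RNA-seq libraries of PDAC (pancreatic ductal adenocarcinoma) cell lines. The labels name 1 line only as 90. The other is PANC-1, an established line from a human pancreatic tumour. Each line has 1 library labelled NC and 2 libraries labelled siALDOA 1 and siALDOA 2 (spelled siAldoa for 90), in which small interfering RNA against ALDOA, the glycolytic enzyme aldolase A, is named. The labels do not spell out NC, give no time after transfection or dose, and do not say whether siALDOA 1 and siALDOA 2 are different RNAs or repeats of 1 RNA. Separate cultures are not mentioned, so the p-values given here cover the spread among these libraries alone, and that spread may be technical.

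Cells that enter mitosis condense and attach their chromosomes to a bipolar spindle, part them when the anaphase promoting complex is switched on, and then pinch apart at the midzone. The work is done by motor proteins of the kinesin family, by kinetochore proteins that grip microtubules, by a checkpoint that holds back anaphase until every chromosome is attached, and by cyclin-dependent, Polo-like and Aurora kinases. In dividing cells most of the genes are transcribed together, late in the cell cycle, under the DREAM, MYBL2 and FOXM1 factors. Promoter elements known from such genes are the CHR, through which these factors act, and the CCAAT box. In bulk RNA, fewer cells in mitosis and less of these RNAs per cell cannot be told apart.

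Although the genes act together, their transcripts differ in base composition. GC content of the longest transcript ran from 34.2% for KIF20B to 57.9% for KIFC1. The members were split at the middle of that order into 20 low-GC members (median 38.6%, highest CCNA2 at 42.1%) and 20 GC-rich members (lowest KIF23 at 42.3%, median 47.7%). These names are relative to the members. The middle of all tested genes with a GC value lay at 49.6%, above the median of the GC-rich members. Low-GC transcripts were also longer, with a median of 4814.5 against 2708.5 nucleotides, and the third codon position was G or C in a median of 32.2% against 50.2% of codons. The 11 kinesins show this within 1 motor fold. The stretches listed next are each 20 codons around the loop that binds ATP, the same part of each motor, with G or C at the third position of a codon in capitals. They are shown because related proteins are written here in codons of different GC content, with G or C there in 5 of 20 codons for KIF20B and CENPE and in 13 of 20 for KIFC1.
KIF20B: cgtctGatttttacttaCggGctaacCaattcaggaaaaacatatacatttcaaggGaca
CENPE: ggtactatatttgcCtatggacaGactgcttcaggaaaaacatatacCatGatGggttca
KIF11: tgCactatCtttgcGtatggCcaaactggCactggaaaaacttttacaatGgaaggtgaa
KIF23: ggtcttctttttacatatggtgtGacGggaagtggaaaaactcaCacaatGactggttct
KIF20A: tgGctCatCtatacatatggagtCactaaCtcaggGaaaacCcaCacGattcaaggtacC
KIFC1: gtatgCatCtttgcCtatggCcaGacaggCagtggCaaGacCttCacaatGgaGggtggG
The sequences are coding sequence read 5′ to 3′ from GENCODE v29 on GRCh38. That of KIF20B lies in exons 5 and 6 (chr10:89710011-89710965, plus strand), that of CENPE in exons 3 and 4 (chr4:103195980-103196163, minus strand) and that of KIF11 in exons 3 and 4 (chr10:92606703-92607204, plus strand). That of KIF23 lies in exons 4 and 5 (chr15:69421752-69422050, plus strand) and that of KIF20A in exons 5 and 6 (chr5:138182407-138182590, plus strand), and these 5 spans include the intron between the exons. That of KIFC1 lies within exon 7 (chr6:33405305-33405364, plus strand). The count was not strictly ordered by transcript GC content: KIF23 had G or C there in 4 of 20 codons, and KIF2C, at 50.4% over its transcript, in 7.

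The libraries held 17.8 M to 21.8 M fragments, as recovered from the steps between the lowest FPKM values of short genes. At that depth the shortest supply was for CENPE in 90 NC, at about 20.1 fragments, and for KIF14 in PANC-1 siALDOA 1, at about 21.0. In 90 NC 9 members, and in PANC-1 siALDOA 1 8 members, rested on fewer than 100 fragments. ALDOA stood at 36.1% and 43.8% of its NC level in the 90 siALDOA libraries and at 55.3% and 51.0% in those of PANC-1. All 5 ductal epithelial markers were detected in every library, with a summed level of 3947 to 5293 FPKM in 90 and 3388 to 4349 in PANC-1, and CDH1 in PANC-1 was low at 1.18 to 2.05 FPKM. The 5 fibroblast markers summed to 1.31 to 1.77 FPKM in 90 and 10.1 to 14.0 in PANC-1, nearly all of it COL1A1, with COL1A2 at 0 in the 3 PANC-1 libraries. Of the 4 leukocyte markers (31.3 to 51.2 FPKM in 90, 124 to 162 in PANC-1) CD68 made up nearly the whole sum and CD3E was at 0 in 5 of 6 libraries. The 3 endothelial markers summed to 3.65 to 3.83 FPKM in 90, most of it CDH5, and to 0.00781 to 0.0357 in PANC-1, where CDH5 was at 0. PTPRC, the defining leukocyte surface gene, was at or near 0 in all 6.

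The low-GC members moved between single libraries by an order of magnitude, and siALDOA 1 lay above NC in 90 and below NC in PANC-1. Within 90, NC was the lowest and siALDOA 1 the highest library for 18 of 20 low-GC members. Within PANC-1, siALDOA 1 was the lowest and siALDOA 2 the highest for all 20. TOP2A, the topoisomerase that untangles sister DNA, was at 3.98, 86.2 and 11.3 FPKM in 90 NC, siALDOA 1 and siALDOA 2. In the PANC-1 libraries, in the same order, it was at 35.1, 3.25 and 102 FPKM. In both lines the siALDOA libraries thus lay far apart from each other, in 90 on 1 side of NC and in PANC-1 on both sides. TOP2A lies at chr17:40388516-40417950 on the minus strand and CENPE at chr4:103105806-103198409 on the minus strand (GENCODE v29, GRCh38). CENPE, a kinetochore kinesin that carries chromosomes to the spindle equator, was at 0.131, 3.78 and 0.628 FPKM in 90 NC, siALDOA 1 and siALDOA 2. In PANC-1 it was at 3.39, 0.229 and 7.04 FPKM in the same order.

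Other motors of low GC content had the same order of libraries. KIF20B, a kinesin of late cytokinesis, stood at 0.497, 7.38 and 1.63 FPKM in 90 NC, siALDOA 1 and siALDOA 2, and at 6.36, 0.681 and 11.4 in PANC-1. KIF11, the motor that pushes spindle poles apart, stood at 0.709, 14.0 and 2.07 FPKM in 90 and at 8.77, 0.775 and 22.7 in PANC-1. For KIF14, which acts at the midbody, PANC-1 held the widest range of all members within a line, 0.132 FPKM in siALDOA 1 against 5.99 in siALDOA 2, a ratio of 45.4. KIF18A, which damps chromosome movement at the equator, ranged over 15.1-fold in 90 and 19.3-fold in PANC-1, and KIF15, a helper of KIF11, over 21.1-fold and 18.7-fold.

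Kinetochore, checkpoint and midzone genes of low GC content moved with the motors. HMMR, a spindle microtubule protein, stood at 1.76, 19.3 and 5.002 FPKM in 90 NC, siALDOA 1 and siALDOA 2 and at 18.7, 1.37 and 28.0 in PANC-1. CENPF, a large kinetochore protein, had the widest range in 90, a ratio of 36.1 between siALDOA 1 and NC. ASPM, a spindle pole protein, ranged over 34.6-fold in 90 and 23.0-fold in PANC-1. ECT2, the exchange factor that turns on RhoA at the cleavage furrow, ranged over 11.6-fold and 19.8-fold. ANLN, which links actin and septins there, ranged over 15.8-fold and 18.8-fold. The range was smaller for the outer kinetochore subunit NDC80 (5.21-fold and 8.28-fold) and for the checkpoint protein MAD2L1 (4.38-fold and 6.17-fold).

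CDK1, the kinase that drives entry into mitosis, had the highest mean FPKM of the low-GC members after BUB3. It stood at 18.2, 95.6 and 33.1 FPKM in 90 NC, siALDOA 1 and siALDOA 2 and at 62.4, 12.8 and 67.3 in PANC-1. PANC-1 NC and siALDOA 2 were close for CDK1, with siALDOA 1 alone low. A pair of low-GC members did not share the wide range. BUB3, a checkpoint protein whose transcript has 41.4% GC but whose coding sequence has 48.3%, ranged over 1.60-fold in 90 and 1.58-fold in PANC-1. CCNA2, the cyclin of S phase and early mitosis, ranged over 2.76-fold and 2.58-fold.

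**Figure D1:**
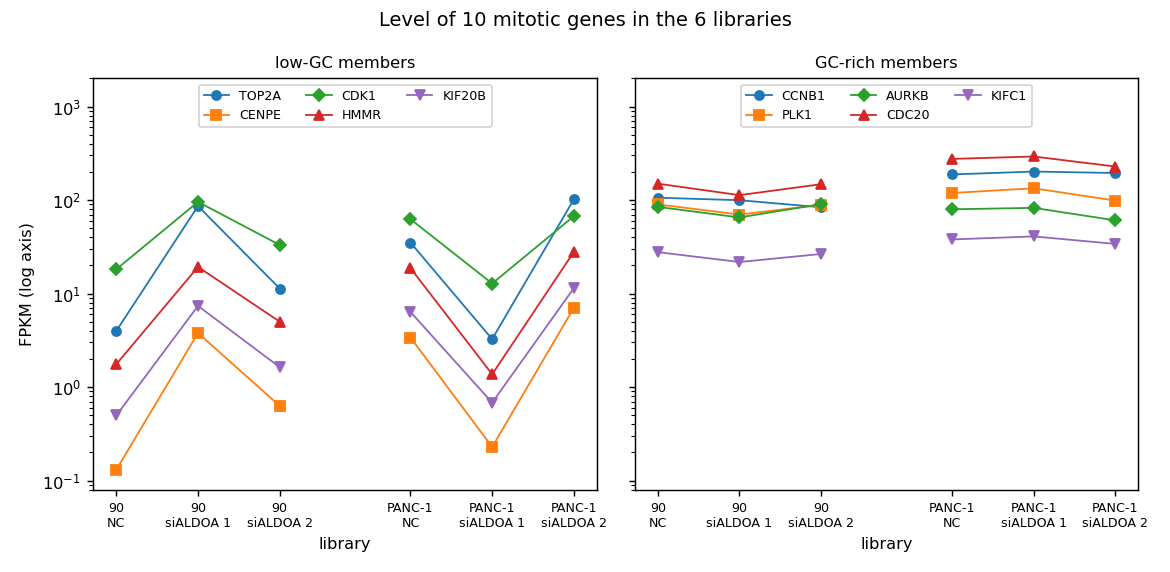
FPKM on a log axis of 5 low-GC members (left) and 5 GC-rich members (right) in each of the 6 libraries, with lines joining the libraries of 1 cell line as a guide to the eye. TOP2A runs from 3.25 to 102 FPKM, while PLK1 stays between 70.0 and 134 FPKM.

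GC-rich members stayed nearly level within a line. PLK1, the Polo-like kinase of mitotic entry and spindle assembly, was at 90.0, 70.0 and 88.9 FPKM in 90 NC, siALDOA 1 and siALDOA 2, and at 119, 134 and 98.8 in PANC-1. AURKB, the kinase of the chromosomal passenger complex that corrects faulty attachments, was at 84.6, 65.2 and 90.5 FPKM in 90 and at 79.7, 82.6 and 60.7 in PANC-1. PLK1 lies at chr16:23677656-23690367 on the plus strand and AURKB at chr17:8204733-8210600 on the minus strand. For both genes 90 siALDOA 1 and PANC-1 siALDOA 2 were the lowest libraries of their line, which are the libraries where TOP2A and CENPE were highest.

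CDC20, KIFC1, CCNB1 and CCNB2 also stayed nearly level within a line. CDC20, which activates the anaphase promoting complex, was at 149.9, 113 and 148 FPKM in 90 NC, siALDOA 1 and siALDOA 2 and at 275, 293 and 228 in PANC-1. KIFC1, a minus-end kinesin that gathers spindle poles, was at 27.7, 21.7 and 26.5 FPKM in 90 and at 37.9, 40.9 and 34.0 in PANC-1. CCNB1, the B-type cyclin that partners CDK1, was at 106, 99.7 and 83.7 FPKM in 90 and at 188, 202 and 195 in PANC-1, although at 43.2% its GC content is only just above that of the low-GC members. CCNB2 had the narrowest range within PANC-1 of all 40 members, 66.0 to 68.5 FPKM.

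Between the highest and lowest library of 90, the FPKM ratio had a median of 13.2 over the low-GC and 1.33 over the GC-rich members, and in PANC-1 of 18.8 and 1.23. It was at least 2 for 19 of 20 low-GC and 4 of 20 GC-rich members in either line. Those 4 were KIF23, the centralspindlin motor, the checkpoint proteins BUB1 and BUB1B, and the spindle protein NUSAP1. Their GC content of 42.3 to 43.2% is among the lowest of the GC-rich members. KIF23, for example, stood at 5.9996, 32.1 and 6.12 FPKM in 90 NC, siALDOA 1 and siALDOA 2 and at 22.5, 5.19 and 39.9 in PANC-1.

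**Figure D2:**
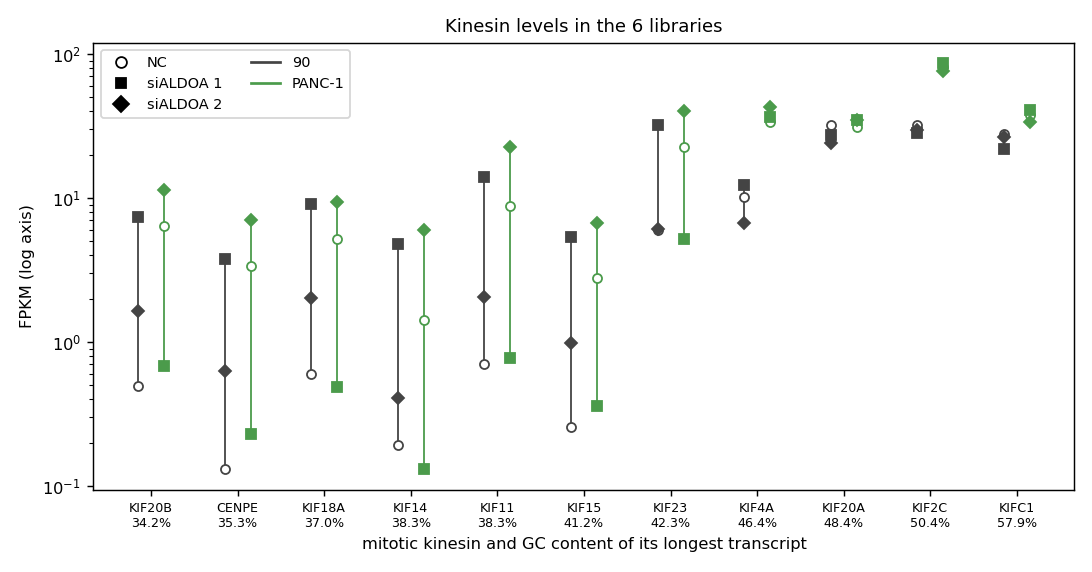
FPKM on a log axis of the 11 mitotic kinesins in order of rising GC content of the longest transcript, with 1 point per library and a line spanning the libraries of a cell line. The spans cover an order of magnitude from KIF20B to KIF15 and shrink to the size of the points for KIF20A, KIF2C and KIFC1.

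Set against the NC library of the line, on the log2(FPKM + 1) scale used from here on, 22 of 40 members differed at least 2-fold in 90 siALDOA 1, all higher. Of all 12592 genes tested 16.1% did in either direction and 15.8% upward. In the eighths of tested genes with 25 to 39.6% and 39.6 to 42.7% GC content, 67.4% and 41.5% were at least 2-fold higher. Those eighths span the GC content of the low-GC members, of which 18 of 20 were at least 2-fold higher. The low-GC members had a median difference of 2.55 (0.25 to 4.13, highest TOP2A) and the GC-rich ones of -0.08, beside -0.02 over all genes tested. In 90 siALDOA 2 5 members differed at least 2-fold, against 1.74% of all genes (4 higher against 0.913%, and 1, BUB1B, lower against 0.826%), with medians of 0.84 and -0.18 for low-GC and GC-rich members. These are differences between 1 library and 1 library and carry no test. The added 1 FPKM shrinks the differences of low genes and lowers such counts. CENPE in 90 siALDOA 2, for example, was at 4.81 times its NC FPKM but differed by 0.53 on this scale.

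In PANC-1 siALDOA 1 the difference ran the other way. There 23 members differed at least 2-fold, all lower, against 11.3% of all genes in either direction and 10.9% downward. All 20 low-GC members were below NC, with a median of -2.24, while the GC-rich members had a median of 0.09. Of the genes in the same eighths of lowest GC content, 51.5% and 27.6% were at least 2-fold lower. Only 4.91% and 13.3% of them lay above NC. In PANC-1 siALDOA 2 all 20 low-GC members were above NC, with a median of 0.77, and 7 of the 40 members were at least 2-fold higher, against 3.69% of all genes (4.07% in either direction). In those eighths 91.4% and 86.8% of genes were above NC, and 12.5% and 9.75% were at least 2-fold higher. The siALDOA libraries of a line differed at least 2-fold from each other for 23 members in 90, where 21% of all genes did, and for 23 members in PANC-1, where 19.2% did. In the same eighths 71.0% and 56.5% of genes did in 90, and 74.9% and 51.4% in PANC-1. BUB3 was the only low-GC member that differed by less than 2-fold in all 6 of these comparisons.

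Over the 40 members, Spearman's rho of transcript GC content with the difference from NC was -0.87 in 90 siALDOA 1, -0.65 in 90 siALDOA 2, 0.80 in PANC-1 siALDOA 1 and -0.70 in PANC-1 siALDOA 2 (Pearson's r -0.82, -0.56, 0.79 and -0.71). The points share the libraries and their depth, the differences within a line share their NC library, and GC content went with transcript length (rho -0.50), so these values are a description. The same trend ran through the whole table. In the eighth of tested genes with the lowest GC content (1426 genes, 25 to 39.6%) the median difference was 1.40, 0.12, -1.02 and 0.56 in the same order. For 11405 of the tested genes, those with a GC value, rho was -0.73, 0.22, 0.58 and -0.65. In 90 siALDOA 2 the sign over all genes was thus opposite to that over the members. What sets the trend, and its part in the members' differences, was not tested.

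**Figure D3:**
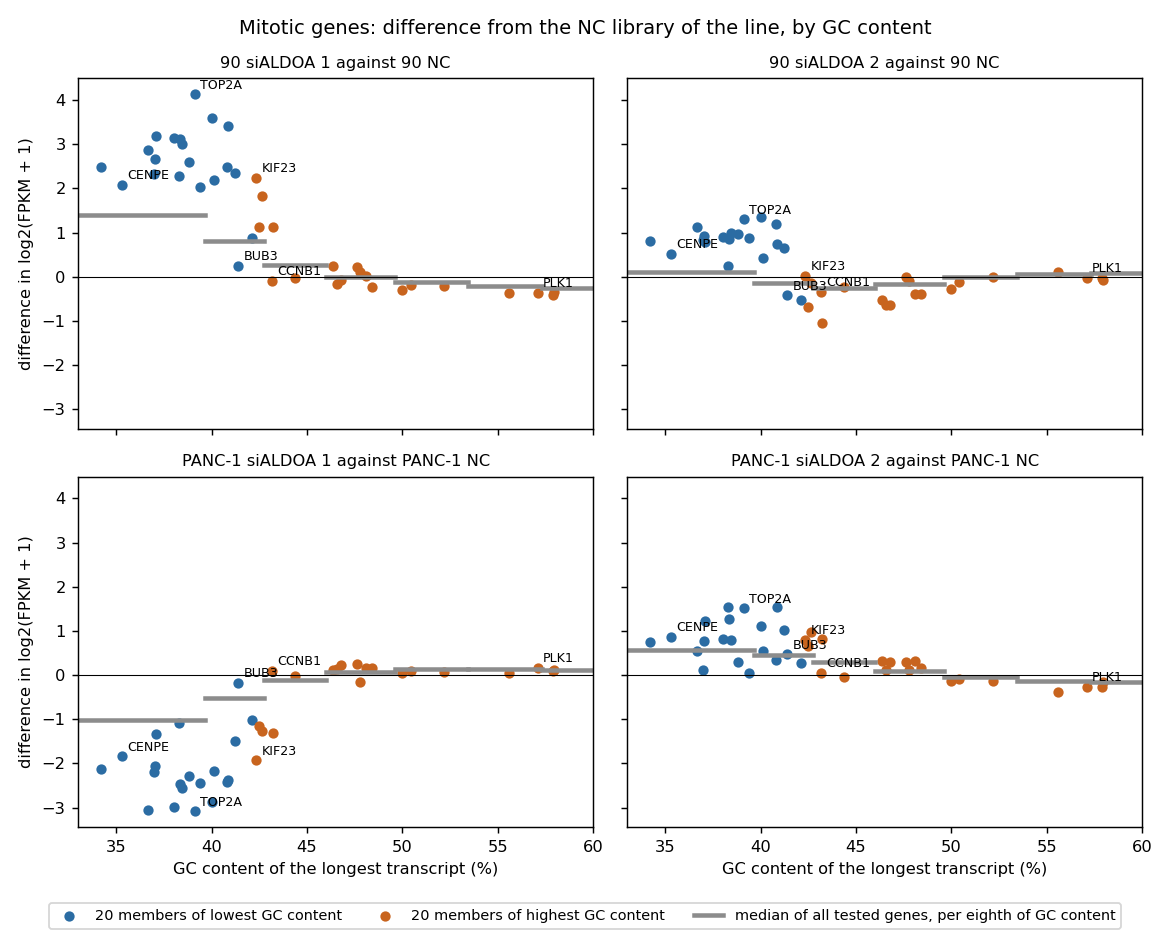
Difference in log2(FPKM + 1) from the NC library of the line against GC content of the longest transcript, 1 panel per siALDOA library, with the 20 low-GC members in blue, the 20 GC-rich members in orange and the median of all tested genes in each eighth of GC content as grey bars. Low-GC members lie above 0 in 90 siALDOA 1 and below 0 in PANC-1 siALDOA 1, on the side of the grey bars and mostly beyond them.

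Taking out the trend that all genes share left smaller medians of the same sign. After each library's smooth trend on GC content was subtracted, the low-GC members had medians of 1.36 in 90 siALDOA 1, 0.79 in 90 siALDOA 2, -1.33 in PANC-1 siALDOA 1 and 0.22 in PANC-1 siALDOA 2. In PANC-1 siALDOA 2 13 of 20 low-GC members were above NC after correction, with MAD2L1 at -0.50 and CDK1 at -0.45. In 90 siALDOA 1 13 of them were still at least 2-fold higher, where 4.95% of all genes were, and in PANC-1 siALDOA 1 12 were at least 2-fold lower, where 2.91% were. TOP2A remained the member with the largest difference in both (2.87 and -2.15). BUB3, in contrast, changed side, to -0.67 in 90 siALDOA 1 and 0.48 in PANC-1 siALDOA 1. CCNB1, nearly level before, came out at -0.70 and 0.52. With transcript length in the trend as well, the low-GC medians were 1.39, 0.82, -1.29 and 0.17.

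Genes whose proteins work as partners were in several cases measured at ratios that depended on the library. The FPKM ratio of CDK1 to its cyclin CCNB1 was 0.171, 0.960 and 0.396 in 90 NC, siALDOA 1 and siALDOA 2, and 0.332, 0.0635 and 0.346 in PANC-1. MAD2L1 to CDC20, the inhibitor and its target in the checkpoint, ranged from 0.0302 to 0.462, and ECT2 to PRC1, both of the spindle midzone, from 0.0259 to 0.481. For the related kinesins KIF20B and KIF20A the ratio ranged from 0.0155 to 0.329. These 4 pairs join a low-GC and a GC-rich member. Of 3 pairs with closer GC content, NDC80 to NUF2, neighbours in 1 complex with 40.1% and 38.8% GC, stayed between 1.06 and 1.72, and TPX2 to AURKA, the kinase it activates, between 1.87 and 2.18. The checkpoint partners BUB1B, a GC-rich member at 43.2%, and BUB3, a low-GC member at 41.4%, did not keep their ratio. It ranged from 0.0711 to 0.323. KIF23 to PRC1, both GC-rich members, with 42.3% and 48.1% GC, ranged from 0.0609 to 0.461. BIRC5 to AURKB, both of the chromosomal passenger complex, differed by line, with 0.750 to 0.902 in 90 and 1.503 to 1.79 in PANC-1.

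**Figure D4:**
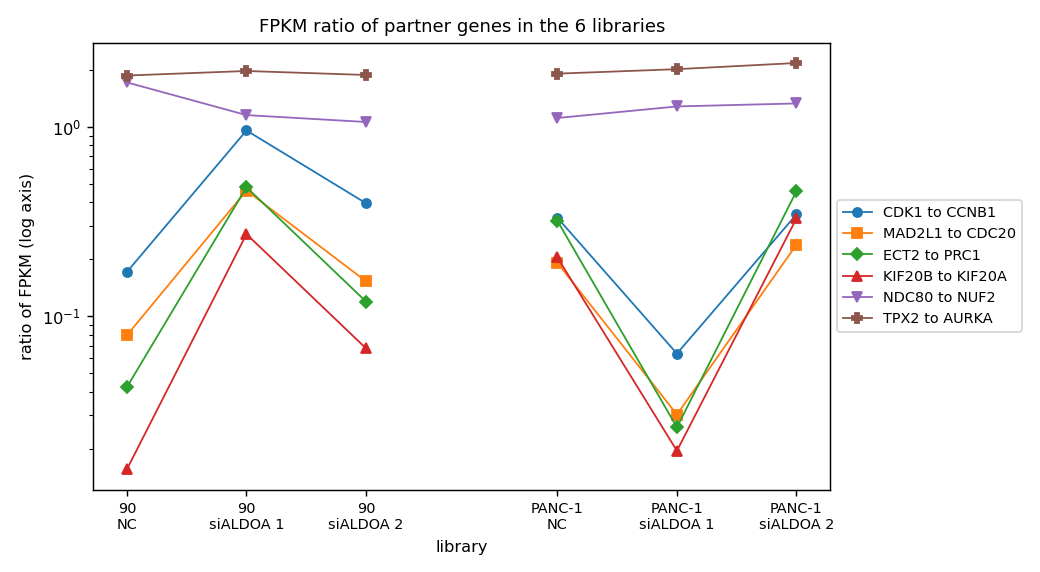
FPKM ratio on a log axis of 6 pairs of partner genes in the 6 libraries, with lines joining the libraries of 1 cell line. The 4 pairs of a low-GC and a GC-rich member move together with the library, while NDC80 to NUF2 and TPX2 to AURKA stay between 1.06 and 2.18.

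No change of a member with siALDOA was detected in tests over libraries. Over both lines, limma with Benjamini-Hochberg adjustment called 0 of 12592 genes (0%), with 43 genes and 0 members at an unadjusted p under 0.05. Within 90 it called 0 genes (0%, 33 unadjusted) and within PANC-1 0 genes (0%, 21 unadjusted), again with 0 members at an unadjusted p under 0.05. Each unadjusted count was far below a share of 0.05 of the genes tested, which is the share reached with no change at all. The limma p-values for siALDOA thus ran high over the whole table, and the reason was not tested. The members' median difference was 0.16 over both lines, 0.53 in 90 and -0.20 in PANC-1, beside 0.01, -0.03 and -0.01 over all genes tested. With 1 library left out the members' median ran from -0.20 (without 90 NC) to 0.63 (without PANC-1 siALDOA 1) over both lines, and was also below 0 without 90 siALDOA 1 or PANC-1 siALDOA 2. Without 90 NC only PANC-1 compares siALDOA with NC, so that -0.20 is the PANC-1 value again. In 90 the members' median was 0.01 without siALDOA 1 and 1.48 without siALDOA 2, and in PANC-1 0.34 without siALDOA 1 and -1.21 without siALDOA 2. The standard error behind these values was far larger for low-GC members, with a median of 1.45 within a line against 0.29 for GC-rich ones. A 2-fold change of a low-GC member was thus not detectable with these libraries. ALDOA itself, at 36.1 to 55.3% of its NC level in the siALDOA libraries, was not called either. The lack of calls thus does not show that the GC-rich members were unchanged.

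Of the members with the smallest p-values, CDC25C, the phosphatase that activates CDK1, was above NC in all 4 siALDOA libraries, where 3.39% of all genes were. It stood at 5.32 FPKM in 90 NC against 6.34 and 5.34, and at 10.9 in PANC-1 NC against 13.1 and 13.5, a fitted difference of 0.19 (SE 0.163, limma adjusted p = 1). In 90 siALDOA 2 the excess was 0.004 and fell to -0.02 with rescaling to TPM, and in 90 siALDOA 1 it fell to -0.21 with quantile normalization. UBE2C, the ubiquitin-conjugating enzyme of the anaphase promoting complex, was at 244, 197 and 199.9 FPKM in the 90 libraries and at 242, 249 and 220 in those of PANC-1, again ordered NC, siALDOA 1, siALDOA 2, a fitted difference over both lines of -0.17 (SE 0.124, adjusted p = 1). In 90, TTK, the checkpoint kinase also called MPS1, differed by 1.84 (SE 1.34) and NUF2 by 1.79 (SE 1.34), both with a limma adjusted p of 1. In PANC-1, MAD2L1 differed by -1.20 (SE 1.20) and CDK1 by -1.05 (SE 1.20), both with an adjusted p of 1. Without PANC-1 siALDOA 1, the difference was 0.05 for MAD2L1 and 0.11 for CDK1.

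The order of the 3 libraries within a line gave 20 members with both 90 siALDOA libraries above NC, 18 of them low-GC, where 20.6% of all genes had that order. In PANC-1 no low-GC member had both siALDOA libraries on 1 side of NC. CCNB1, AURKA, TPX2 and KIF20A had both siALDOA libraries below NC in 90 and above it in PANC-1, an order that 7.3% of all genes had. AURKA, the spindle pole kinase, stood at 56.9, 50.8 and 36.2 FPKM in 90 NC, siALDOA 1 and siALDOA 2 and at 88.1, 97.1 and 95.2 in PANC-1. With other scalings only AURKA and KIF20A kept this order under median-ratio scaling, quantile normalization and TPM alike, while CCNB1 lost it under each of them and TPX2 under quantile normalization and TPM; after GC correction AURKA lost it too. limma called 0 genes (0%) for a difference of the siALDOA effect between the lines, with 24 genes and 0 members at an unadjusted p under 0.05. CCNB2 was below NC in all 4 siALDOA libraries, where 5.82% of all genes were, by 0.02 to 0.23, an order it lost under median-ratio scaling, quantile normalization and TPM.

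PANC-1 differed from 90 in the level of several GC-rich members, all of them higher in PANC-1. limma, with terms for line and siALDOA, called 10 of 40 members, where it called 38.8% of all genes in either direction and 20.4% as higher in PANC-1. The share of members called was below the 38.8% of all genes and near the 20.4% called as higher. The members' median difference was 0.61, beside 0.13 over all genes. It ran from 0.15 without PANC-1 siALDOA 2, and 0.17 without either NC library, to 1.05 without 90 siALDOA 1 and 1.13 without PANC-1 siALDOA 1, and was 0.35 without 90 siALDOA 2. Leaving out the NC library of 90 or that of PANC-1 gave the same comparison, of the siALDOA libraries alone. Each of the 10 was GC-rich. All 3 PANC-1 libraries lay above all 3 of 90 for 13 of 40 members, a share near the 29% of all genes with that order. The reverse held for 0 members and 25.1% of all genes. Those 13 were the called members together with BUB3, PRC1 and PLK1.

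Of the called members, a pair of motors differed most. KIF4A, a chromosome-bound kinesin that also shapes the midzone, stood at 10.1, 12.3 and 6.71 FPKM in 90 NC, siALDOA 1 and siALDOA 2 and at 33.8, 36.6 and 42.6 in PANC-1. The difference was 1.88 (SE 0.251, limma adjusted p = 0.004038). KIF2C, which takes microtubules apart at centromeres, stood at 32.1, 28.0 and 29.6 FPKM in 90 and at 80.6, 86.6 and 75.6 in PANC-1, a difference of 1.41 (SE 0.120, limma adjusted p = 0.001042). For these 2 genes every PANC-1 library was above every library of 90 by a wide gap, and both were called in all 18 alternative settings. Of these settings, those without 90 NC and without PANC-1 NC are the same comparison. BUB1 had a difference between theirs, 1.63, but with a standard error of 0.677 it was not called (limma adjusted p = 0.1242). KIF20A and UBE2C, in contrast, overlapped between the lines, at 24.1 to 32.0 and 197 to 244 FPKM in 90 against 31.1 to 35.0 and 220 to 249 in PANC-1.

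Among the other called members, CCNB1 was at 96.4 ± 11.5 FPKM in 90 and at 195 ± 6.89 in PANC-1 (SD, n = 3 each, NC and siALDOA libraries together). The difference was 1.01 (SE 0.131, limma adjusted p = 0.003578), with an adjusted p of 0.0707 after GC correction and 0.0009108 to 0.0707 over the alternatives. CDC25C differed by 1.01 (SE 0.154, limma adjusted p = 0.006148), and CDC20 by 0.95 (SE 0.167, limma adjusted p = 0.009725). TPX2, the spindle assembly factor, was at 91.8 ± 20.6 FPKM in 90 and 191 ± 19.98 in PANC-1 (SD, n = 3 each), a difference of 1.07 (SE 0.216, limma adjusted p = 0.01559). AURKA differed by 0.97 (SE 0.193, limma adjusted p = 0.01485). BIRC5, the passenger protein survivin, was at 65.0 ± 5.33 FPKM in 90 and 118 ± 9.17 in PANC-1 (SD, n = 3 each), a difference of 0.85 (SE 0.125, limma adjusted p = 0.005523). CENPA, the centromeric histone, differed by 0.84 (SE 0.140) and KIFC1 by 0.55. Other regulators of mitotic entry and exit were not called: the difference was -0.03 for CDK1, -0.15 for CCNA2, 0.06 for CCNB2 and 0.16 for UBE2C. AURKB, at 80.1 ± 13.2 FPKM in 90 and 74.3 ± 11.9 in PANC-1 (SD, n = 3 each), overlapped between the lines (difference -0.11, SE 0.192, limma adjusted p = 0.7243). With GC and length correction it was called as lower in PANC-1 (-0.23, SE 0.059, limma adjusted p = 0.02473, with 0.0247 to 0.964 over the alternatives).

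The calls depended in part on the libraries used. Leaving out either NC library leaves only the siALDOA libraries to compare the lines, so both runs are the same comparison. In it 5 members were called (AURKA, CCNB1, KIF2C, KIF4A and TPX2), while BIRC5, CDC20, CDC25C, CENPA and KIFC1 were not. Without PANC-1 siALDOA 2, AURKA, TPX2 and KIFC1 were not called. With median-ratio scaling 7 members were called, and BIRC5 (limma adjusted p 0.0809, with 0.000318 to 0.0809 over the alternatives), CDC20 (0.081, with 0.000267 to 0.081) and KIFC1 were not. KIFC1 was called in 6 of 18 alternatives. PLK1 (82.97 ± 11.2 FPKM in 90, 117 ± 17.6 in PANC-1, SD, n = 3 each) differed by 0.49 (SE 0.174, limma adjusted p = 0.08348), short of the threshold, and was called after GC correction, which called 11 members and 25.2% of all genes as higher in PANC-1, and with rescaling to TPM.

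Low-GC members leaned the same way, but their spread was too wide for a call. Of 20 low-GC members 17 had a difference above 0, with a median of 0.56, and 0 were called (18 of 20, 0.73 and 10 for the GC-rich members). Of all genes tested 56.7% had a difference above 0. Of the 40 members 35 did, but only 23 without either NC library and 24 without PANC-1 siALDOA 2. With any other single library left out, 32 to 39 members did. Their standard errors had a median of 1.003, against 0.171 for GC-rich members. TOP2A, at 33.8 ± 45.5 FPKM in 90 and 46.8 ± 50.4 in PANC-1 (SD, n = 3 each), and CENPE, at 1.51 ± 1.98 and 3.55 ± 3.41, overlapped between the lines. For TOP2A the sign of the difference turned with the libraries used, to -0.65 without either NC library and to -0.46 without PANC-1 siALDOA 2. When siALDOA 1 of both lines was left out, a choice made after seeing the data that leaves 1 residual degree of freedom, 33 members including all 20 low-GC ones were called higher in PANC-1. Of all genes 36.4% were called as higher in that fit. ANLN and TOP2A were then called as higher with siALDOA over both lines, where 0.0715% of all genes were.

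**Figure D5:**
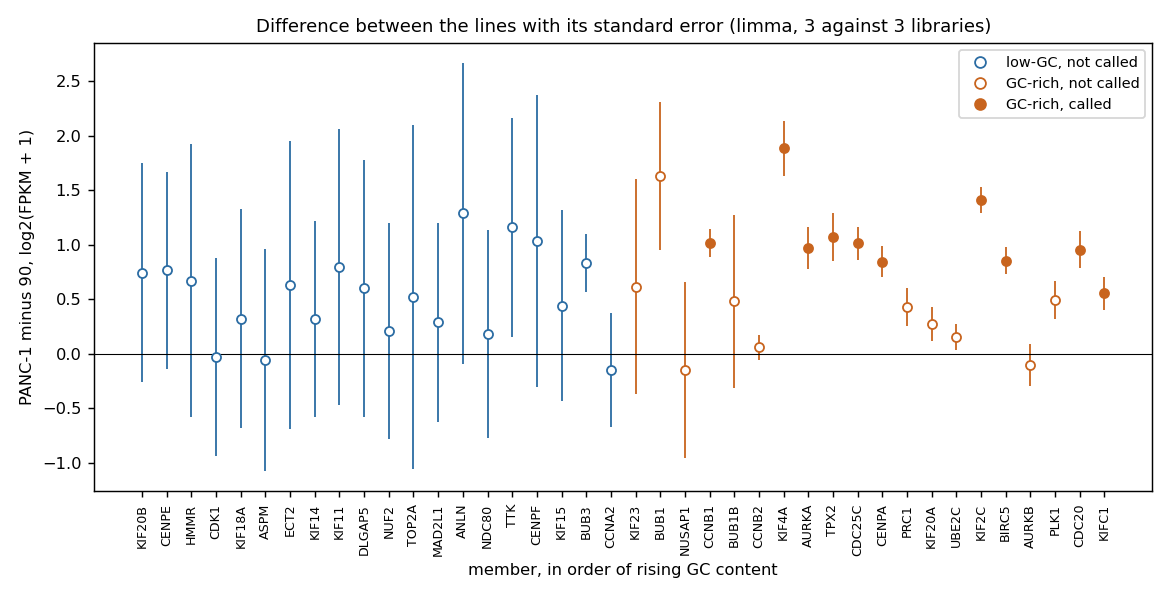
Difference between PANC-1 and 90 in log2(FPKM + 1) with its standard error for the 40 members in order of rising GC content (limma, 3 against 3 libraries). Filled points, the 10 called members, all lie above 0 among the GC-rich members, whose error bars are mostly short; those of the low-GC members are long.

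Promoters of both groups carried the elements known from mitotic genes, and differed less in base composition than the transcripts did. RefSeq promoters were matched for 34 members, and not for AURKA, BIRC5, BUB3, TPX2, TTK and UBE2C. Over the 250 bases before the gene start, median GC content was 60.4% for 18 low-GC and 63.6% for 16 GC-rich members, and 58% for 27305 genes. The letters TTTGAA (CHR, searched on both strands) were found in 10 of 18 low-GC and 9 of 16 GC-rich members, and in 16.1% of all promoters. CCAAT, also on both strands, was found in 13 of 18 and 14 of 16, and in 37.0% of all promoters. A match is a description of the letters, not of binding. The 4 promoters listed next, a low-GC pair and a GC-rich pair, are shown to set the elements of both groups side by side. ANLN has no CCAAT letters in the stretch shown, and the other 3 have both elements. Capitals mark the CHR and CCAAT letters or their reverse complements.
KIF11: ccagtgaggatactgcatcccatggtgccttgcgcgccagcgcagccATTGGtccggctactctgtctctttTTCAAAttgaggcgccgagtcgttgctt
ANLN: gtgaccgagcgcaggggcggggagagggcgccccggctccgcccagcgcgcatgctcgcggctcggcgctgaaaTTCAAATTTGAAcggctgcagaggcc
PRC1: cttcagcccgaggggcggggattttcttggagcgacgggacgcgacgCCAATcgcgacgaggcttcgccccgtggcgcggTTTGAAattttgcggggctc
PLK1: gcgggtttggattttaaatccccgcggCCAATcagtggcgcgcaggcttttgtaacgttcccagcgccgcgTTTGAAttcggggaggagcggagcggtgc
Each is the last 100 bases before the gene start in RefSeq on GRCh38.p14, written 5′ to 3′ along the gene's strand: KIF11 chr10:92593030-92593129 (plus), ANLN chr7:36389762-36389861 (plus), PRC1 chr15:90994536-90994635 (minus) and PLK1 chr16:23678789-23678888 (plus). The CHR letters nearest the gene start began 20 to 29 bases before it in all 4, and in ANLN a pair of them abut on opposite strands.

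Related genes outside the 40 were read in 8 further lists. Of the 13 genes listed for cohesin, which holds sister chromatids together, and for its control, 10 were in the table. They had a median GC content of 40.5% and a median difference from NC of 2.75, 0.59, -1.42 and 0.93 in 90 siALDOA 1, 90 siALDOA 2, PANC-1 siALDOA 1 and PANC-1 siALDOA 2. The 13 chromosomal passenger and central spindle genes, with a median GC content of 51.5%, had medians of -0.11, -0.07, 0.08 and 0.23. The order of the lists did not follow median GC content throughout. The 9 mitotic entry and exit genes, at 43.6%, had medians of -0.03, 0.04, -0.04 and -0.10, while the 10 interphase kinesins, at 46.1%, had medians of 0.88, -0.01, -0.66 and 0.82. KIF5B, an interphase kinesin with 39.1% GC content, differed by 3.92, 1.34, -2.54 and 1.39. That is the pattern of TOP2A in a gene outside the members. Between the lines, 20.4% of all genes were called as higher and 18.4% as lower in PANC-1, the background for the counts that follow. Among the passenger and spindle genes, the passenger subunit CDCA8 was called as higher in PANC-1 (1.39, SE 0.134, limma adjusted p = 0.001453), as were 2 others, and NUMA1 as lower. Of 25 tabulated centromere and outer kinetochore genes 5 were called as higher and 0 as lower in PANC-1, among them SKA1, HJURP and OIP5 at 1.60, 1.45 and 1.31. Of 16 genes of the anaphase promoting complex and its enzymes 4 were called as higher and 0 as lower, led by UBE2S at 2.17. Of 18 mitotic transcription factor and DREAM genes 1 was called as higher and 5 as lower in PANC-1, and 12 were not called. FOXM1 was at 117, 102 and 116 FPKM in 90 NC, siALDOA 1 and siALDOA 2 and at 42.9, 50.6 and 42.2 in PANC-1 (difference -1.28, SE 0.135, limma adjusted p = 0.001891), while the 10 called members were higher there. Condensin had 1 called in each direction of 8, the mitotic entry and exit genes 2 higher of 9, and the interphase kinesins 1 lower of 10. The cohesin list had 1 higher of 10, PTTG1, which is a regulator and not a cohesin subunit. In none of these 8 lists was a gene called with siALDOA by limma, with 43 of all genes at an unadjusted p under 0.05.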

How the data were processed

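The authors deposited 1 table of FPKM values (fragments per kilobase of gene, scaled to the mapped fragments of the library) for 6 libraries. The submitters' processing notes name HISAT2, featureCounts and hg38. The sources used here do not name the annotation, the use of strand or the treatment of reads with several matches. The files hold no raw counts, so count tests were not used. Values were taken as log2(FPKM + 1), which understates changes of low genes, for 12592 genes averaging 1 FPKM or more, and fitted with limma 3.58.1 in R 4.3.3 with an intensity trend. Calls used p-values adjusted by Benjamini-Hochberg over all genes tested, at a threshold of 0.05. The fits had terms for line and siALDOA (3 residual degrees of freedom) or 4 group means (2 residual degrees of freedom), which give the single NC library the spread of the siALDOA libraries. The scripts were tested on simulated data. Differences between single libraries carry no test and were counted from 2-fold.

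GC content came from the longest GENCODE v29 transcript, with a value for 90.6% of tested genes and all 40 members. GC correction subtracted a lowess trend (span 0.3) of each library's deviation from the gene mean. Depth, where 97.2 to 97.7% of low values of short genes were whole steps within 0.03 of a step, covers counting error only. Same-numbered siALDOA libraries of the lines share only a number. Genes named in full were TOP2A, CENPE, PLK1 and AURKB, the 4 members of lowest and of highest GC content, up to 8 called members per direction, and otherwise the 2 members of smallest p in each direction. Members named beyond these, and the partner pairs, were chosen after their values were seen. The 40 members, the lists (cohesin, condensin, centromere and outer kinetochore, anaphase promoting complex, chromosomal passenger and central spindle, mitotic transcription factors and DREAM, mitotic entry and exit, interphase kinesins, and the cell type markers) and the split by GC content were chosen with earlier results of these data known. Alternatives were another pseudocount, other filters, scalings, GC correction, libraries left out and a replicate block.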

Additional observations from a re-analysis of the deposited data

Results flagged for a closer look

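CCNB1, AURKA, TPX2 and KIF20A stood out because both siALDOA libraries lay below NC in 90 and above NC in PANC-1. The siALDOA effect in PANC-1 minus that in 90 was 0.29 for CCNB1, 0.52 for AURKA, 0.62 for TPX2 and 0.48 for KIF20A on the log2 scale. The interaction was tested by limma, which called none of the 4 (adjusted p = 1 for each). AURKA and KIF20A kept the order under median-ratio scaling, quantile normalization and TPM, and CCNB1 under none of these. After GC correction AURKA lost the order, with -0.07 in PANC-1 siALDOA 2, and KIF20A kept it. The order was seen in 7.3% of all genes tested, and the low-GC genes of the same libraries moved by more (medians of 2.55, 0.84, -2.24 and 0.77 for the low-GC members in 90 siALDOA 1, 90 siALDOA 2, PANC-1 siALDOA 1 and PANC-1 siALDOA 2). The part of that movement in the order of these 4 genes was not tested.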

How the results depend on the processing

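For PANC-1 against 90, leaving out 1 library in turn gave 2422 to 4110 genes and 5 to 10 members called. The lowest counts came without an NC library, which left the siALDOA libraries alone to compare the lines. Leaving out siALDOA 1 of both lines, added after seeing the data, gave 33 members, a member median of 1.57 and 17 genes called with siALDOA over both lines. Median-ratio scaling moved the median of all genes between the lines from 0.13 to 0.02 and in 90 siALDOA 1 from -0.02 to -0.19. With the replicate block 3258 genes and 9 members were called between the lines, and 0 genes with siALDOA (19 at an unadjusted p under 0.05), so the numbers changed 1 member's call, that of KIFC1; deviations of same-numbered siALDOA libraries correlated at -0.86 over 12592 genes. Crossing the numbers, also added later, gave 7594 genes between the lines and 0 with siALDOA (897 unadjusted). With no filter on low values 38 genes were called with siALDOA in 90 and 49 in PANC-1, none of them members. The cause of these changes was not tested.

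Signs turned with a library left out for AURKB (-0.24 to 0.0302) and TOP2A (-0.65 to 2.17) between the lines, for CDK1 (-2.20 to 0.11) and MAD2L1 (-2.45 to 0.0461) with siALDOA in PANC-1, and for ASPM with siALDOA over both lines (-0.0563 to 1.99). For each siALDOA library against its NC, the median of the low-GC members kept its sign under each scaling, correction, pseudocount and GC measure. Fitted over both siALDOA libraries of PANC-1 it was -0.74, and with PANC-1 siALDOA 2 alone 0.77. Those of the GC-rich members, all near 0, moved by more than the small spread between the siALDOA libraries of a line. In 90 siALDOA 1 they were -0.0063 with GC content at the third codon position, -0.27 with the 10 members of highest GC content alone, and -0.30 with median-ratio scaling. In 90 siALDOA 2 they were -0.26 with the median over transcripts, -0.10 with the third position, -0.0767 with the 10 highest, -0.0862 with GC correction and -0.0915 with median-ratio scaling. In PANC-1 siALDOA 1 they were 0.0659 with the third position, -0.011 with GC correction, 0.27 with median-ratio scaling and 0.0205 with GC and length correction. In PANC-1 siALDOA 2 they were 0.13 with the third position, -0.14 with the 10 highest, 0.00228 with GC correction, 0.0576 with median-ratio scaling, 0.15 with quantile normalization and 0.0833 with GC and length correction.

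Members at least 2-fold from NC were 15 in 90 siALDOA 2 with a pseudocount of 0.1. With GC correction they were 3 in 90 siALDOA 2, 13 in PANC-1 siALDOA 1 and 1 in PANC-1 siALDOA 2, and 8 between the siALDOA libraries of 90. With GC and length correction the counts were 3, 13, 0 and 5, and 15 between the siALDOA libraries of PANC-1. Depth limits CENPE, KIF14, KIF15 and KIF18A most, at under 40 fragments in their lowest library.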
